A study of Mus musculus with 33 samples.

Results

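The genes described here are 41 genes of the cell cycle, of DNA replication and of neurogenesis, read out in the CA1 region of the mouse hippocampus. They form a list of names. No measured value enters its rule, but the members were chosen with earlier results of these data known. Ccnf and Mcm7 are among the genes that the study reported for JQ1 in young mice. The members fall into 8 roles, from the licensing of replication origins to the markers of immature neurons. All 41 were found among the 38355 genes of the count tables of the aged mice. In the tables of the young mice, which hold 40678 loci, 40 of the 41 were found, the exception being Cdt1.

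A cell that divides first loads the MCM helicase onto its replication origins. The D cyclins with their kinases Cdk4 and Cdk6 then inactivate the RB protein, which frees E2F factors to switch on the genes of S phase, while inhibitors such as p27 (Cdkn1b) hold the kinases back. Genes of G2 and mitosis, such as Cdk1, Top2a and Mki67, follow later, and their mRNA is scarce in tissue made mostly of neurons, which do not divide. In the hippocampus new neurons are born in the dentate gyrus rather than in CA1, and microglia and oligodendrocyte precursors are the main cells of the adult brain that can divide outside such niches.

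JQ1 is a small molecule that blocks the bromodomains with which BET proteins bind acetylated histones, and the study asked what it does to gene expression in CA1 in disease and in health. The aged mice were 8 to 10 months old and came from a transgenic line on a C57B/6 background, called APP here, in which the neuronal Thy1 promoter drives human mutant APP. Of these, 6 APP mice received 50 mg per kg JQ1 for 10 days, 6 APP mice received vehicle with 10% DMSO and 4 WT mice received vehicle, all by intraperitoneal injection. The young mice were 3-month-old C57B/6JRj WT mice without the transgenes, of which 8 received 50 mg per kg JQ1 and 8 received vehicle for 13 days. The methods describe the mice of the APP line as females and the young mice as males, and no WT mouse of the aged cohort received JQ1. The aged WT mice are called WT in their titles although their strain label is that of the APP line. A WT mouse listed as replicate 2 was not analysed here. Nothing in the labels gives a batch, and the replicates were taken as separate mice.

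Between 14605459 and 25339482 reads per mouse fell on genes in the aged cohort, so that 3 reads correspond to between 0.118 and 0.205 CPM, the counts scaled to a common library size, while the depth of the young mice is unknown because their values are FPKM. The library labelled APP JQ1 replicate 4 went against its label. It held 1781 CPM of App and 820 of Thy1, whereas the other 11 APP libraries held at least 2070 and 1618 CPM and the 4 WT libraries at most 1992 and 1070 CPM. Cst7, a gene of plaque-associated microglia, was at 0 CPM in it and at 13.7 to 55.6 CPM in the other 11. WT replicate 4 held RNA of the choroid plexus, with 3065 CPM of Ttr against at most 115 CPM in the other 15 aged libraries. Both libraries were kept in the fits, and some of the results are also given without 1 or both of them. The CA1 label was met by its marker list, whose 6 genes summed to between 728 and 1166 CPM in every aged mouse. Markers of dentate granule cells were also present, with sums between 94.0 and 301 CPM. Markers of CA3 summed to at most 134 CPM in APP mice and to a median of 128 CPM in WT mice. In WT replicate 1 they summed to 278 CPM, and that library had the lowest WT sums of the CA1 and dentate lists, 865 and 94.0 CPM. It was kept in the fits. In bulk tissue, fewer cells of a type cannot be told apart from less RNA per cell.

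The promoters of Top2a, Cdk1 and Mki67 are shown first because Top2a was the member called between APP and WT mice, and because Cdk1 and, for JQ1-treated APP mice alone, Mki67 were called once the library that went against its label was left out. Each window runs from 250 bases before the start of the gene to 50 bases after it, in RefSeq on build GRCm38.p6. Capitals mark the CHR element TTTGAA, the CCAAT box and the E2F words TTTCCCGC, TTTGGCGC, TTTCGCGC and TTTGCCGC, each searched on both strands.
Top2a, chr11:99024140-99024439, minus strand: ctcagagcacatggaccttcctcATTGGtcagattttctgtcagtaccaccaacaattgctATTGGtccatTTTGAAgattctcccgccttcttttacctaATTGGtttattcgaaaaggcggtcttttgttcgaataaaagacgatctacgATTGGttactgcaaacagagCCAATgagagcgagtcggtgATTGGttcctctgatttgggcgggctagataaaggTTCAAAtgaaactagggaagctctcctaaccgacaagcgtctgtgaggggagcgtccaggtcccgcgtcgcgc
Cdk1, chr10:69352863-69353162, minus strand: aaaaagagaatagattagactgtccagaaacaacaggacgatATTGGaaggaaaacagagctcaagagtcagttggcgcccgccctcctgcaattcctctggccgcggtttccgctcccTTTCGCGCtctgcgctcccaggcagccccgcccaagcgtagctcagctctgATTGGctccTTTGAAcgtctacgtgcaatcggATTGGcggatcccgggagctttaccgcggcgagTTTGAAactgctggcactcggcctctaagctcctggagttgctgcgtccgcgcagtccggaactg
Mki67, chr7:135716330-135716629, minus strand: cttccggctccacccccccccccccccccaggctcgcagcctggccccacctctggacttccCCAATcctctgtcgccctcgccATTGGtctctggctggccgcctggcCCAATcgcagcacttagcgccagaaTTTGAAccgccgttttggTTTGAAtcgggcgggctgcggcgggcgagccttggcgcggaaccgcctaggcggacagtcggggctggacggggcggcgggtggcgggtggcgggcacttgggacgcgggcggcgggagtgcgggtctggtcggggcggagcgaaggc

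All 3 windows held 2 CHR elements. The window of Top2a held 6 CCAAT boxes, and those of Cdk1 and Mki67 held 3 each. An E2F word was found 1 time, in the window of Cdk1. Of 32851 promoter windows of the same length, 17.9% held a CHR element, 37.4% a CCAAT box and 2.26% an E2F word. Of the 41 genes, 33 had a window, of which 10 held a CHR element, 26 a CCAAT box and 9 an E2F word. The E2F words stood before the helicase genes Mcm3, Mcm5, Mcm6 and Mcm7, among others, and pairs of CHR elements also before Ccnb2, Ccnf and Cdc45. These matches describe the letters of the windows only.

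Levels in aged CA1 were set side by side per length of exon (RPKM, from TMM-scaled counts). Cdk4, the kinase partner of the D cyclins, was the highest, at 16.6 RPKM in WT and 18.2 RPKM in vehicle-treated APP mice. The highest genes of other roles were Cdkn1b at 10.4 and 9.34 RPKM, Rb1 at 8.38 and 7.92 RPKM, and Pcna, the sliding clamp of the replication fork, at 7.34 and 9.27 RPKM. The genes of G2 and mitosis lay far lower, with Top2a at 0.05 and 0.237 RPKM, Cdk1 at 0.0446 and 0.203 RPKM and Mki67 at 0.154 and 0.276 RPKM. Eomes, a factor of intermediate progenitors, reached at most 2 counts in any aged mouse, Ccnb1 at most 25 and Bub1 at most 21. These 3 genes did not pass the filter on low counts, and the other 38 were tested. In exact permutation tests of their mean CPM, their smallest p was 0.295, for Bub1 in JQ1-treated APP against WT mice.

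Disease came first in the design, as APP against WT mice, both on vehicle. Top2a was higher in APP mice and was the 1 member that passed the test, while the other 4 tested genes of the mitosis role had fold changes above 0 and did not pass. Over all 16962 genes, the quasi-likelihood test of edgeR, adjusted by Benjamini and Hochberg, called 2.57% at an adjusted p under 0.05, in either direction and 2.49% as higher. Among the 38 members it called 1, Top2a, a share close to that of all genes. A fold change above 0 was found for 30 of the 38 members against 51.6% of all genes, and their median log2 fold change was 0.26 against 0.01 over all genes. An unadjusted p under 0.05 was reached by 7 members, against 14.4% of all genes. Of these 6 were higher and 1 lower, against 9.42% and 5.01% of all genes.

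Top2a (ENSMUSG00000020914, chromosome 11, 98992943 to 99024189, minus strand, GRCm38) encodes topoisomerase II alpha, which untangles replicated chromosomes. Its level was 0.498, 0.587, 0.337 and 0.380 CPM in the WT mice, or 8 to 12 reads each. In vehicle-treated APP mice it ran from 1.24 to 3.71 CPM with a median of 1.71, and in JQ1-treated APP mice from 0.600 to 4.92 CPM with a median of 3.51. Every APP library lay above every WT library, the closest being the library labelled APP JQ1 replicate 4 at 0.600 CPM. Its fold change on the log2 scale was 2.24 (SE 0.507, adjusted p = 0.0207) for vehicle-treated APP and 2.76 (SE 0.514, adjusted p = 0.0137) for JQ1-treated APP against WT mice. Without the library labelled APP JQ1 replicate 4 these were 2.23 (adjusted p = 0.00241) and 2.96 (adjusted p = 0.000267), and without WT replicate 4 as well 2.11 (adjusted p = 0.0140) and 2.84 (adjusted p = 0.00201). The call against vehicle-treated APP mice rested on all 4 WT mice, since leaving out WT replicate 1, 3, 4 or 5 alone gave adjusted p-values of 0.0739, 0.0586, 0.0811 and 0.0888. For JQ1-treated APP mice the same gave 0.0477, 0.0578, 0.0583 and 0.0682.

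Cdk1 (ENSMUSG00000019942, chromosome 10, 69335146 to 69352938, minus strand) encodes the kinase that drives entry into mitosis. Its level was 0.149, 0.0978, 0.379 and 0.253 CPM in the WT mice, which is 2 to 9 reads, and ran from 0.535 to 2.12 CPM with a median of 0.777 in vehicle-treated APP mice. These groups did not overlap, as was the case for 6.99% of all genes, and 2 members, Cdk1 and Top2a, were in that class, both higher, against 4.94% of all genes. The JQ1-treated APP mice ran from 0.333 to 2.38 CPM with a median of 0.966, and overlapped the WT mice through the library labelled APP JQ1 replicate 4 alone. On the log2 scale the fold change was 2.14 (SE 0.598, adjusted p = 0.0692) for vehicle-treated and 2.26 (SE 0.602, adjusted p = 0.0598) for JQ1-treated APP against WT mice, short of the threshold. Without the library labelled APP JQ1 replicate 4 it passed in both, at 2.13 (adjusted p = 0.0419) and 2.44 (adjusted p = 0.0197), as it did without WT replicate 4 as well, at 2.51 (adjusted p = 0.0472) and 2.82 (adjusted p = 0.0266). Without WT replicate 4 alone it did not, with adjusted p-values of 0.0873 and 0.0890.

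Mki67, the gene of the proliferation marker Ki-67, was at 0.647, 1.91, 1.69 and 1.94 CPM in the WT mice. It ran from 1.72 to 3.71 CPM (median 2.96) in vehicle-treated and from 1.47 to 6.02 CPM (median 3.66) in JQ1-treated APP mice. The groups overlapped in both comparisons. The log2 fold changes against WT were 0.84 (SE 0.376, adjusted p = 0.310) and 1.21 (SE 0.380, adjusted p = 0.116), and without the library labelled APP JQ1 replicate 4 the latter became 1.37 (adjusted p = 0.0331), while it was 1.41 (adjusted p = 0.0747) without WT replicate 4 as well and 1.25 (adjusted p = 0.227) without WT replicate 4 alone. Aurkb, the kinase of the chromosomal passenger complex, had a log2 fold change of 2.13 between APP and WT mice on vehicle, with an SE of 0.934 and an adjusted p of 0.298, on 1 to 8 reads per WT mouse. Birc5, its partner survivin and the highest gene of the mitosis role per length, stood at 1.15, 1.42, 0.632 and 0.760 CPM in WT mice and at 1.04 to 2.53 CPM (median 1.48) in vehicle-treated APP mice, which overlapped. Kif11, the motor of the mitotic spindle, had a median of 0.901 CPM in WT and 1.23 CPM in vehicle-treated APP mice.

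**Figure D1:**
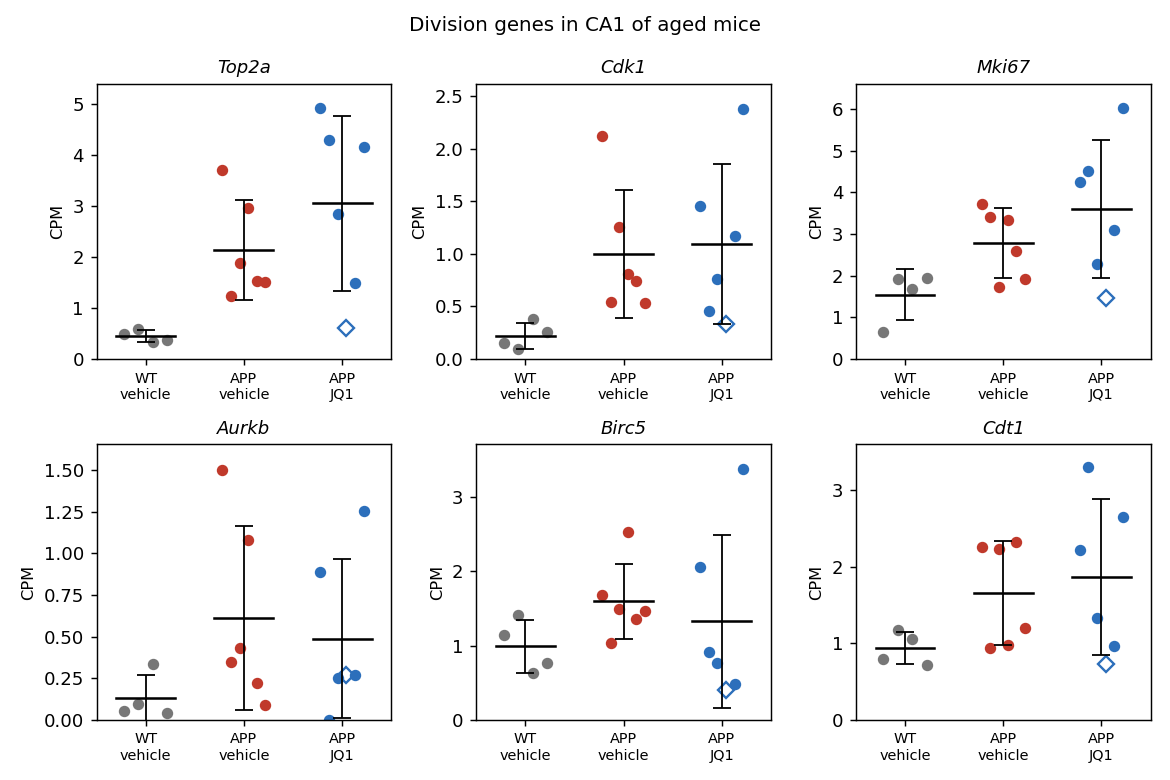
Levels (CPM) of 6 division genes in each aged mouse, with the group mean and SD (bars). The open diamond is the library labelled APP JQ1 replicate 4. Top2a lies between 0.337 and 0.587 CPM in the 4 WT mice and above that in every APP library.

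Genes of microglia were higher in the same contrast. Of 10 microglia markers 6 passed the test as higher in vehicle-treated APP than in WT mice, against 2.49% of all genes. So did 8 of 10 markers of plaque-associated microglia and 1 of 8 astrocyte markers, Gfap. C1qb, a complement gene, changed by 2.33 and Cst7 by 8.40 on the log2 scale. The microglia list summed to between 404 and 447 CPM in WT mice, to between 799 and 1517 CPM in vehicle-treated APP mice and to between 445 and 1489 CPM in JQ1-treated APP mice, where the lowest sum was in the library labelled APP JQ1 replicate 4. None of the 10 markers was at 0 in every mouse of a group. No marker of oligodendrocyte precursors was called out of 7, with a median log2 fold change of 0.21. The part of microglia in the level of the division genes was not tested.

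The wider pathway was read through lists that do not contain the members. Of 41 tested genes of mitosis in the list of further mitosis genes, 34 had a fold change above 0 in vehicle-treated APP against WT mice, against 51.6% of all genes. Their median log2 fold change was 0.46, and 11 reached an unadjusted p under 0.05, all higher, against 9.42% of all genes in that direction. None passed the adjusted threshold. In JQ1-treated APP against WT mice the same list had 35 of 41 above 0, against 50.1% of all genes, and a median of 0.47. The 51 genes of the list of further replication genes had 29 above 0 and a median of 0.05 in vehicle-treated APP mice. The 23 tested genes of further E2F, RB, kinase and inhibitor genes had 9 above 0 and a median of -0.03 in vehicle-treated APP mice. The 21 tested genes of further neurogenesis genes had 11 above 0 and a median of 0.01. None of the genes of these lists was called in any of the comparisons of aged mice.

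No gene of the earlier steps of the cycle passed the test between APP and WT mice. All 9 licensing and helicase genes had fold changes above 0, from 0.07 for Mcm7 to 0.82 for Cdt1 on the log2 scale, and none was called. Mcm4, the highest of them per length, stood at 10.4, 12.1, 13.4 and 11 CPM in WT mice and at 11.3 to 19.0 CPM (median 13.8) in vehicle-treated APP mice, and the groups overlapped. Pcna stood at 18.5, 16.6, 19.9 and 15.5 CPM in WT mice and at 15.6 to 25.9 CPM (median 23.6) in vehicle-treated APP mice, a log2 fold change of 0.34 (SE 0.160, adjusted p = 0.346). Ccne1, cyclin E1, stood at 16.6, 14.7, 18.0 and 15.8 CPM in WT mice and at 12.5 to 18.3 CPM (median 15.2) in vehicle-treated APP mice. Ccne2, its paralog, had a log2 fold change of -0.44 (SE 0.171, adjusted p = 0.232), the lowest of the 38 members.

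JQ1 was then compared with vehicle within APP mice. The means of Ccnd3 and E2f1 were lower and those of Ccne2, Dcx, Rrm1 and Cdkn1b higher with JQ1, but no member passed the adjusted threshold. Among all 16962 genes 1.08% were called by the same test. An unadjusted p under 0.05 was reached by 6 members, against 17.6% of all genes. Of these 4 were higher and 2 lower, against 8.42% and 9.19% of all genes. With offsets for GC content and length no member reached an unadjusted p under 0.05, against 9.42% of all genes, so none of the 6 kept it. DESeq2 called 749 of 27729 genes, or 2.7%, and 2 of 41 members, Ccnd3 with an adjusted p of 0.0333 and Ccne2 with an adjusted p of 0.0482. The 27729 genes and 41 members are those with an unadjusted p. DESeq2 gives no adjusted p to genes that it filters for low counts, so the 2.7% and the 1.08% have different bases. The study itself listed Ccnd3 as lower and Ccne2 as higher with JQ1 in APP mice, at an adjusted p under 0.05. It also listed Ccne2 among the genes that it described as restored by JQ1 in APP mice. A fold change above 0 was found for 23 of the 38 members against 49.8% of all genes, and their median log2 fold change was 0.07 against -0.001 over all genes. Without the library labelled APP JQ1 replicate 4, edgeR called 0.431% of all genes and no member. An unadjusted p under 0.05 was then reached by 6 members, against 13.6% of all genes. Cdkn1b was no longer among them (edgeR, unadjusted p = 0.0619), and Top2a was (edgeR, unadjusted p = 0.0372).

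Ccnd3 (ENSMUSG00000034165, chromosome 17, 47505051 to 47599691, plus strand), which encodes cyclin D3, was the member whose groups did not overlap, a class that held 2.03% of all genes, and 1.15% in the direction of Ccnd3. It ran from 17.4 to 22.9 CPM with a median of 22 in JQ1-treated and from 23.0 to 32.9 CPM with a median of 26.6 in vehicle-treated APP mice. Its log2 fold change was -0.36 (SE 0.106, adjusted p = 0.0951). Without the library labelled APP JQ1 replicate 4, which was the lowest, it was -0.31 (adjusted p = 0.204). The WT mice stood at 17.8, 23.1, 26.1 and 23.1 CPM, within the range of the 12 APP libraries. The other D cyclins had log2 fold changes of -0.03 for Ccnd1 and -0.09 for Ccnd2. Cdk4 ran from 42.7 to 66.7 CPM (median 59.5) with JQ1 and from 50.6 to 63.9 CPM (median 60.2) with vehicle, against 43.9, 57.9, 57.9 and 55.8 CPM in WT mice, and the groups overlapped.

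Ccne2, cyclin E2, ran from 6.57 to 9.73 CPM (median 8.12) with JQ1 and from 4.63 to 6.75 CPM (median 5.96) with vehicle, while the WT mice stood at 10.6, 6.41, 7.55 and 6.76 CPM. Its log2 fold change was 0.48 (SE 0.155, adjusted p = 0.124), and 0.42 (adjusted p = 0.253) without the library labelled APP JQ1 replicate 4. E2f1, the E2F factor that switches on S-phase genes, ran from 5.63 to 9.33 CPM (median 6.94) with JQ1 and from 7.94 to 11.2 CPM (median 9.60) with vehicle, a log2 fold change of -0.40 (SE 0.134, adjusted p = 0.135). Rrm1, a subunit of ribonucleotide reductase, had a log2 fold change of 0.30 (SE 0.107, adjusted p = 0.155). Cdkn1b ran from 43.7 to 56.4 CPM (median 47.5) with JQ1 and from 36.5 to 50.2 CPM (median 42.6) with vehicle, a log2 fold change of 0.21 (SE 0.0879, adjusted p = 0.222), and the WT mice stood at 53.9, 43.8, 44.2 and 47.2 CPM. Rb1, the gene of the RB protein, ran from 46.9 to 55.1 CPM (median 51.4) with JQ1 and from 42.5 to 54.3 CPM (median 47.4) with vehicle, against 47.8, 54.0, 49.6 and 50.2 CPM in WT mice. The groups overlapped for each of these 5 genes.

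**Figure D2:**
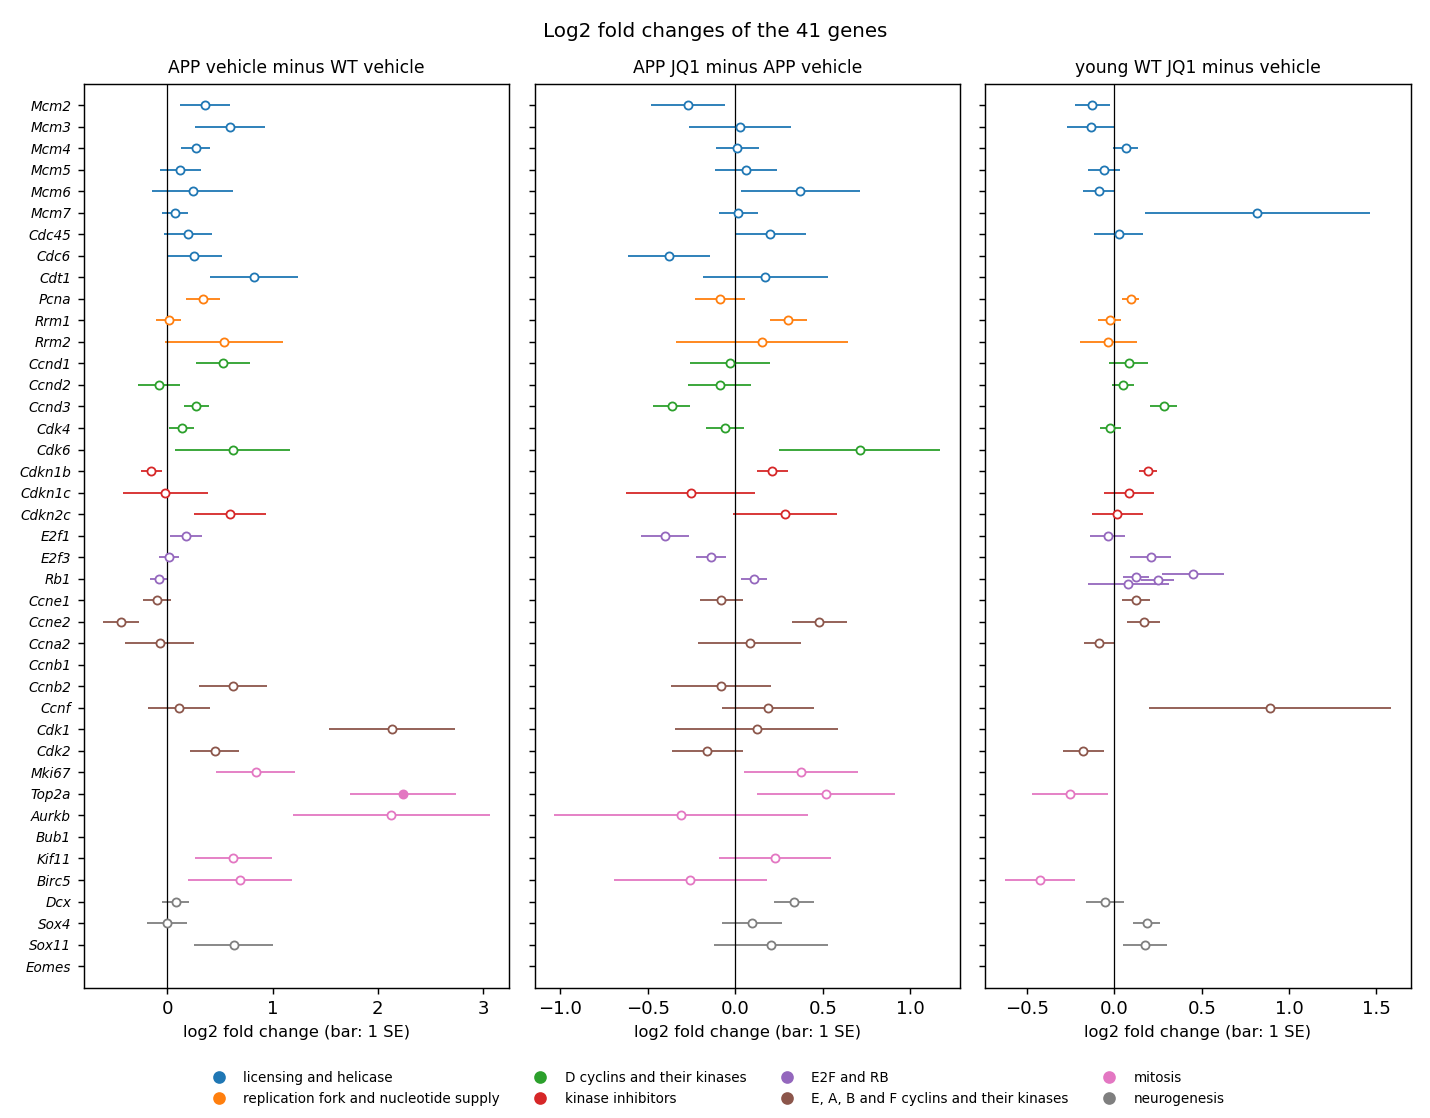
Log2 fold change (1 SE, bars) of each tested gene in 3 comparisons, coloured by role, with a different scale in each panel. Filled points passed the adjusted threshold, which only Top2a did, at 2.24 in vehicle-treated APP against WT mice, and Rb1 has several loci in young mice.

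No division gene passed the test for JQ1 in APP mice. Top2a had a log2 fold change of 0.52 for JQ1 in APP mice and Mki67 of 0.38, while Aurkb had -0.31 and Birc5 -0.26. Without the library labelled APP JQ1 replicate 4, Top2a was at 0.74 (SE 0.326, adjusted p = 0.333). Of 26 genes of replication and division, APP vehicle replicate 1 was the highest of its group for 15, APP JQ1 replicate 6 for 12 and WT replicate 4, which holds choroid plexus RNA, for 12. No microglia marker was called for JQ1 in APP mice.

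Neurogenesis genes were compared the same way. Dcx, doublecortin of migrating immature neurons, ran from 21.9 to 37.8 CPM (median 27.4) with JQ1 and from 19.5 to 26.2 CPM (median 22.8) with vehicle, while the WT mice stood at 21.5, 23.7, 21.2 and 19.2 CPM. Its log2 fold change was 0.34 (SE 0.115, adjusted p = 0.145) against vehicle-treated APP and 0.42 (SE 0.130, adjusted p = 0.115) against WT mice, and the groups overlapped. The SoxC factors Sox4 and Sox11 had log2 fold changes of 0.09 and 0.20 for JQ1 in APP mice. Markers of dentate granule cells, the neighbours of the niche, summed to a median of 239 CPM in JQ1-treated and 167 CPM in vehicle-treated APP mice, with ranges of 163 to 280 and 107 to 301 CPM, and their part in the level of Dcx was not tested.

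**Figure D3:**
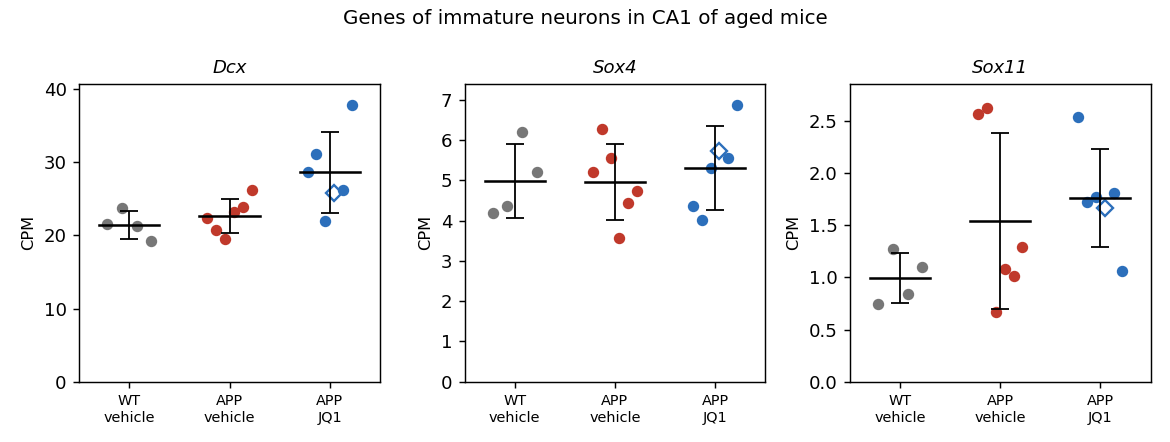
Levels (CPM) of Dcx, Sox4 and Sox11 in each aged mouse with the group mean and SD (bars), the open diamond being the library labelled APP JQ1 replicate 4. Dcx reaches 37.8 CPM in JQ1-treated APP mice, and the groups overlap.

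JQ1-treated APP mice were also set against WT mice, a comparison that shares its WT mice with the first. Top2a was again the called member, against 2.06% of all genes in either direction and 1.93% higher, and it did not overlap between the groups, as 3.71% of all genes in either direction and 2.55% higher. A fold change above 0 was found for 31 of 38 members against 50.1% of all genes, and 10 members reached an unadjusted p under 0.05, all higher, against 14.1% of all genes in either direction, 9.64% higher and 4.46% lower. These were Top2a, Cdk1, Mki67, Dcx, Rrm1, Cdkn2c, Cdk6, Cdt1, Kif11 and Sox11. Cdkn2c, a p18 inhibitor of Cdk4 and Cdk6, had a log2 fold change of 0.88 (SE 0.345, adjusted p = 0.235), and Cdk6 one of 1.33 on 1 to 21 reads per mouse.

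In young WT mice JQ1 was compared with vehicle over 18420 loci, of which 33 belonged to 30 members. Mki67 stood between 0.111 and 0.302 FPKM and Cdk1 between 0.127 and 1.27 FPKM over the 16 mice, and neither passed the filter of 0.5 FPKM in at least 8 mice. No member was called by limma on log2(FPKM + 0.1) with Benjamini-Hochberg adjustment, and 0.00543% of all loci were. An unadjusted p under 0.05 was reached by 6 member loci against 4.65% of all loci. Of these 5 were higher and 1 lower, against 2.09% and 2.56% of all loci, and 20 of 33 had fold changes above 0 against 51.1%. Rb1 is counted more than 1 time here, since 2 of the 6 loci are its own and all its tested loci lay above 0. Among the members not tested by limma, Aurkb had the smallest p in exact permutation tests of the mean FPKM, 0.131.

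Cdkn1b (ENSMUSG00000003031, chromosome 6, 134920401 to 134925513, plus strand) stood apart between the groups of young mice. It ran from 13.5 to 15.9 FPKM (median 14.3) with JQ1 and from 10.6 to 13.5 FPKM (median 12.8) with vehicle, the highest vehicle-treated mouse lying at 13.49 and the lowest JQ1-treated mouse at 13.55 FPKM. Only 5 loci, or 0.0271% of those tested, did not overlap between the groups, and 0.0109% lay higher with JQ1. The log2 fold change was 0.19 (SE 0.0505), with an unadjusted limma p of 0.00130 and an adjusted p of 0.981.

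Ccnd3 ran from 17.3 to 19.9 FPKM (median 18.6) with JQ1 and from 11.7 to 17.6 FPKM (median 16.2) with vehicle in young mice, and the groups overlapped. The log2 fold change was 0.28 (SE 0.0769, adjusted p = 0.981, limma), opposite in sign to that in APP mice. Of the other D cyclins in young mice, Ccnd1 had 0.08 and Ccnd2 0.05. Ccne2 ran from 4.68 to 6.58 FPKM with JQ1 and from 4.26 to 6.43 FPKM with vehicle, a log2 fold change of 0.17 (SE 0.0948, adjusted p = 0.981). Birc5 was at 0.205 to 0.574 FPKM with JQ1 and 0.345 to 0.680 FPKM with vehicle, a log2 fold change of -0.43 (SE 0.2, adjusted p = 0.981), which understates the change of a low gene because of the added 0.1.

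**Figure D4:**
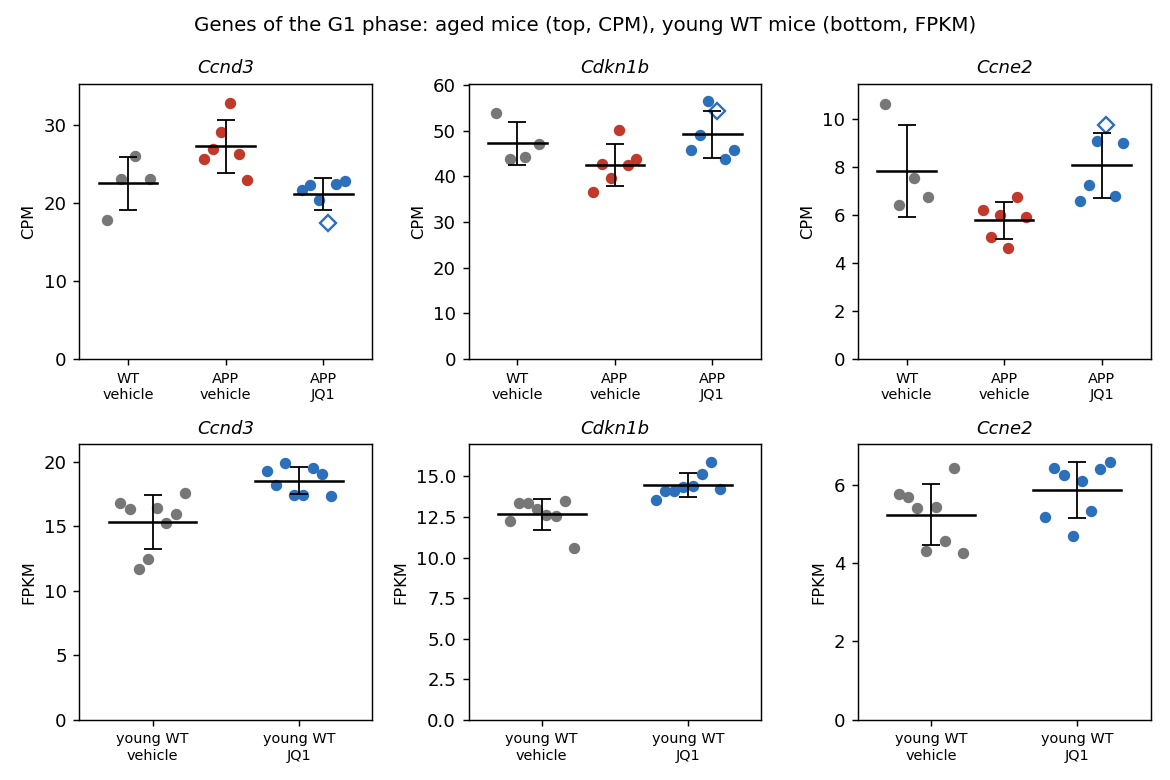
Levels of Ccnd3, Cdkn1b and Ccne2 in each aged mouse (top, CPM) and each young WT mouse (bottom, FPKM) with the group mean and SD (bars). Ccnd3 is lower with JQ1 in APP mice (medians 22 and 26.6 CPM) and higher with JQ1 in young mice (medians 18.6 and 16.2 FPKM). The open diamond is the library labelled APP JQ1 replicate 4.

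In young mice Cdk4 was the highest member per length, at 44.0 to 55.6 FPKM (median 48.9) with JQ1 and 40.0 to 53.9 FPKM (median 50.2) with vehicle. Pcna stood at 14.1 to 17.3 FPKM (median 16.3) with JQ1 and 13.7 to 16.8 FPKM (median 15.1) with vehicle. Both overlapped between the groups. Rb1 was split over 5 loci, the highest of which is joined with Gm17233 and ran from 12.7 to 16.5 FPKM with JQ1 and from 10.6 to 15.3 FPKM with vehicle. Among its other loci, log2 fold changes of 0.25 and 0.45 (both adjusted p = 0.981) were found in 2, and how its reads were shared among the loci cannot be read from the files. Mcm4 ran from 2.77 to 3.66 FPKM with JQ1 and from 2.66 to 3.60 FPKM with vehicle, and Ccne1 from 5.53 to 8.57 and from 5.51 to 6.93 FPKM. Dcx ran from 3.66 to 6.40 FPKM (median 5.19) with JQ1 and from 4.44 to 6.24 FPKM (median 5.27) with vehicle. Its log2 fold change was -0.05 (SE 0.108, limma adjusted p = 0.988), smaller than its SE. Sox4 had a log2 fold change of 0.19 (SE 0.0784, adjusted p = 0.981).

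Ccnf and Mcm7 had their largest values of the young cohort in single JQ1-treated mice. Each is joined to miRNA genes that lie inside it, into 1 locus. Each joined locus holds the miRNA genes as well as the host gene, and its value does not separate them. How much of the value came from the miRNA genes was not tested. The mature miRNAs are shown with the seed (bases 2 to 8) in capitals, from RefSeq on GRCm38.p6.
mmu-miR-25-3p, in Mcm7: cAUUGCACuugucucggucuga
mmu-miR-93-5p, in Mcm7: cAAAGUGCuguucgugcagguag
mmu-miR-5134-3p, in Ccnf: aCGGGUGGcccucuuucugcag

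The 3 seeds differ. Mir25 and Mir93 lie on chromosome 5 in Mcm7 (ENSMUSG00000029730, 138164583 to 138172422) and Mir5134 on chromosome 17 in Ccnf (ENSMUSG00000072082, 24222198 to 24251484), each on the same minus strand as its host. Their hairpins are 84, 88 and 78 bases long, and each overlaps at least 1 annotated exon of its host gene.

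Ccnf, cyclin F of the SCF ubiquitin ligase, stood at 0.849 to 1.17 FPKM (median 1.04) in the 8 vehicle-treated mice. In 7 JQ1-treated mice it stood at 0.971 to 1.47 FPKM, and in JQ1 replicate 6 it stood at 64.9 FPKM. The log2 fold change was 0.89 (SE 0.692, adjusted p = 0.981). The median of Ccnf with JQ1 was 1.22 FPKM. Exact permutation tests of the mean FPKM gave an unadjusted p of 0.0331 for Ccnf and 0.403 for the Mcm7 locus. The Mcm7 locus stood at 5.81 to 8.04 FPKM (median 7.09) in vehicle-treated mice and at 5.64 to 7.34 FPKM in 6 JQ1-treated mice, but at 32.6 FPKM in JQ1 replicate 2 and 211 FPKM in JQ1 replicate 3. Its log2 fold change was 0.82 (SE 0.645, adjusted p = 0.981), and without JQ1 replicates 2, 3 and 6 it was -0.13 (adjusted p = 0.938). The direction of the Mcm7 locus thus changed when these mice were left out. The study reported both genes as higher with JQ1 in young WT mice from this sequencing, and as higher by quantitative PCR. The mean of the Ccnf locus was 9.14 FPKM with JQ1 and 1.02 FPKM with vehicle. That of the Mcm7 locus was 35.3 FPKM with JQ1 and 7.01 FPKM with vehicle. The means with JQ1 include replicates 2, 3 and 6.

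Single high mice were counted over all loci of this kind, as a description. Of 97 tested loci in which a miRNA gene is joined with another gene, 30.9% had a mouse above 5 times the median of the 16 mice. The same was found for 2.73% of 805 joined loci without a miRNA and for 0.433% of 15011 loci with 1 name. In the aged mice the counts list Ccnf and Mcm7 under their own identifiers. There Mcm7 ran from 10.7 to 14.6 CPM (median 12) with JQ1 and from 10.6 to 14.1 CPM (median 11.7) with vehicle in APP mice, against 9.46, 12.1, 12.5 and 12.1 CPM in WT mice. Ccnf ran from 4.48 to 9.96 CPM (median 6.49) with JQ1 and from 3.60 to 12.1 CPM (median 5.20) with vehicle, against 5.58, 6.11, 5.27 and 5.24 CPM in WT mice. The log2 fold changes for JQ1 were 0.02 (SE 0.111, adjusted p = 0.959) for Mcm7 and 0.19 for Ccnf, and no library stood above the rest by as much as in the young mice.

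**Figure D5:**
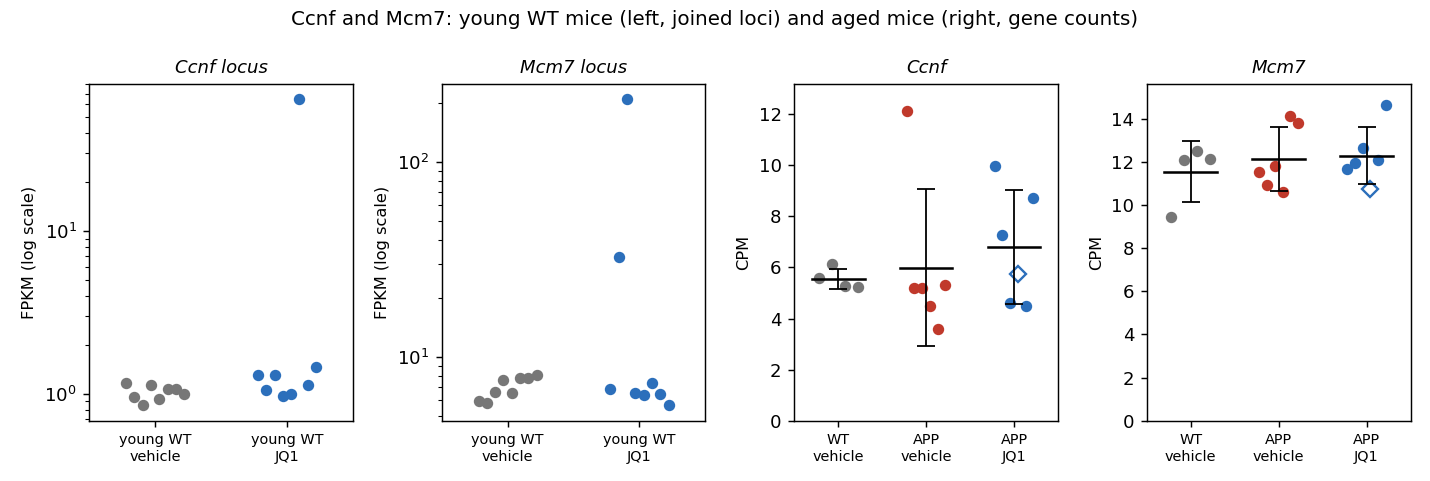
Left, FPKM of the joined loci of Ccnf and Mcm7 in each young WT mouse on a log scale. Right, CPM of the same genes in each aged mouse with the group mean and SD (bars). The 3 high points on the left are JQ1-treated mice at 64.9, 32.6 and 211 FPKM, and the open diamond is the library labelled APP JQ1 replicate 4.

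The Ccnd3 effects of JQ1 in APP and in young WT mice differed by -0.64 on the log2 scale (SE 0.122). This was tested with limma on 13031 genes named alike in both kinds of table, with an adjusted p of 0.00597, and 333 genes passed. The test used no offsets for GC content and length. With such offsets in edgeR no member, Ccnd3 included, reached an unadjusted p under 0.05 for JQ1 in APP mice. Without the library labelled APP JQ1 replicate 4 the difference was -0.59 (adjusted p = 0.0128). Age, sex, transgenes, length of treatment and the processing of the reads all differ between these cohorts and cannot be told apart, and CPM of counts and FPKM are not 1 scale. No other member passed in this test, the next being Rrm1 with an adjusted p of 0.134.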

How the data were processed

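RNA from microdissected CA1 was sequenced in 16 aged and 16 young mice. Per the labels and methods the authors processed the reads with CASAVA 1.8.2, aligned them to mm10 with STAR and counted with HTSeq, and used Cufflinks and Cuffdiff, which give FPKM; TopHat is also named, and the aligner behind the FPKM is not given in the sources used here. The deposited counts are whole numbers of reads per gene, not normalized, and closing rows that name no gene were left out, of which reads outside exons made up 15.4 to 26.9% of the reads in genes, outside exons or ambiguous. The deposited FPKM are scaled by the authors to transcript length and depth. Counts were tested with edgeR 4.0.16 (TMM, filterByExpr, robust quasi-likelihood, 1 fit of 3 groups), and FPKM with limma 3.58.1 (trend, robust) on log2(FPKM + 0.1) for loci of at least 0.5 FPKM in at least 8 mice. Benjamini-Hochberg adjustment ran over all genes or loci, with a threshold of 0.05. DESeq2 1.42.0 was an alternative. Symbols, positions and exonic lengths came from GENCODE M21 (GRCm38, the same build as mm10). Values in every mouse are given for members past the threshold or not overlapping, for Ccnf and Mcm7, and for the highest member per length of each role. The members and lists were chosen with earlier results of these data known. The fits were tested on simulated data with a fixed spread. For counts the changes were placed only in genes of higher counts, so genes with as few reads as Cdk1 were not covered. The test of JQ1 effects between cohorts, and the fits without the 2 doubtful libraries together or without 3 young mice, were added after seeing the data.

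Same-numbered samples were checked for pairing by the correlation of their deviations from group means. Its mean exceeded 0.1 only between the APP groups, at 0.12 (range -0.11 to 0.34). As it did not exceed 0.1 between all groups compared, the numbers were not used as a block in the main fits. Fits with the block are given at the end. An item of the transgenic line is not reported here. Counting intervals and floors cover counting error only.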

Additional observations from a re-analysis of the deposited data

Results flagged for a closer look

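In 19 of 180 groups of values (10.6%), the highest or lowest mouse lay further from the rest than Dixon's 95% critical value allows, where chance gives about 1 in 20. WT vehicle replicate 1, which had the highest sum of CA3 markers, was involved in 4 of these. They were Mcm2 at 3.84 CPM (others 5.33 to 5.45), Mcm7 at 9.46 CPM (others 12.1 to 12.5), Cdk4 at 43.9 CPM (others 55.8 to 57.9) and Ccnd2 at 86.4 CPM (others 38.5 to 43.5). WT vehicle replicate 4, which holds choroid plexus RNA, had the highest Ccnd1 at 33.5 CPM (others 23.9 to 25.4) and the highest Cdkn1c, the p57 inhibitor, at 5.48 CPM (others 1.49 to 1.76). Among vehicle-treated APP mice, replicate 1 was high for Mcm2 at 10.8 CPM (others 4.39 to 6.65) and Ccnf at 12.1 CPM (others 3.60 to 5.30), and replicate 2 for Ccnd2 at 72.5 CPM (others 42.6 to 46.6). Replicate 4 of that group was low for Mcm5 at 4.31 CPM (others 5.91 to 6.43) and high for Cdkn1c at 5.39 CPM (others 1.19 to 2.45). JQ1-treated APP replicate 2 was high for Kif11 at 3.14 CPM (others 1.13 to 1.85).

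In young JQ1-treated mice the Ccnf locus reached 64.9 FPKM in replicate 6 (others 0.971 to 1.47), the Mcm7 locus 211 FPKM in replicate 3 (others 5.64 to 32.6), and Mcm6 3.78 FPKM in replicate 6 (others 2.54 to 3.11). In young vehicle-treated mice, replicate 8 was high for Ccnd1 at 24.8 FPKM (others 14.8 to 18.7) and low for Cdkn1b at 10.6 FPKM (others 12.2 to 13.5), replicate 3 was high for Ccnd2 at 12.4 FPKM (others 9.66 to 10.9), and replicate 2 was low for Cdk4 at 40.0 FPKM (others 48.6 to 53.9).

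The effect of JQ1 on Ccnd3 differed between APP and young WT mice by -0.64 on the log2 scale (limma, adjusted p = 0.00597). This test was added after the data were seen, across tables that were normalized separately, and used no offsets for GC content and length.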

How the results depend on the processing

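Called members rested on few reads and 4 WT mice. Over single mice left out, genes called ranged from 65 to 446 for JQ1 in APP mice, from 154 to 601 for vehicle-treated APP against WT, from 11 to 651 for JQ1-treated APP against WT and from 0 to 2 in young mice. Members called ranged from 0 to 2 and from 0 to 3 in the WT comparisons, in that order, and were 0 throughout for JQ1. With at least 10 counts in every sample Top2a was not tested and 0 members were called in either WT comparison. Fits of only the groups compared gave 679 of 16441 genes and 2 of 37 members for vehicle-treated APP against WT. For JQ1-treated APP against WT they gave 227 of 16353 genes and 1 of 37 members. Offsets for GC content and length gave 41 genes for JQ1 in APP mice and 609 for JQ1-treated APP against WT, and members with an unadjusted p under 0.05 for JQ1 in APP mice went from 6 to 0. DESeq2 called 749, 804 and 790 of 27729 genes and 2, 2 and 3 of 41 members for JQ1 in APP, vehicle-treated APP against WT and JQ1-treated APP against WT. Without both doubtful libraries 57 genes were called for JQ1 in APP mice. Members called were then 2 and 2 of 38 against WT, where 2.82% and 2.87% of all 17196 genes were called. In young mice 0 loci were called without a filter, with the replicate block or without JQ1 replicates 2, 3 and 6, against 1. The log2 fold change of Mcm7 for JQ1 in APP mice ranged from -0.0386 to 0.0706 over mice left out, at -0.0386 without JQ1 replicate 6, -0.01 without vehicle replicate 2 and -0.01 without vehicle replicate 4, and in young mice was -0.13 without JQ1 replicates 2, 3 and 6. The cause was not tested.

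With the replicate number as a block, 87, 35 and 21 genes and 0 members were called in the 3 comparisons of aged mice, with Top2a at adjusted p-values of 0.0719 and 0.0810 against WT in edgeR. With the block and the GC and length offsets together these were 32, 29 and 41 genes and 0 members. Same-numbered samples had a mean correlation of deviations of 0.12 between the APP groups, where differently numbered samples had -0.02. It was -0.22 and -0.05 against WT and 0.03 in young mice. The labels do not say what the numbers stand for, and these correlations cannot show whether the samples were paired.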
